A study of Mus musculus with 8 samples.

Results

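The oocyte NLRP genes are a family of 10 genes, Nlrp2, Nlrp4a, Nlrp4b, Nlrp4c, Nlrp4e, Nlrp4f, Nlrp9a, Nlrp9b, Nlrp9c and Nlrp14, chosen by symbol from the 55487 genes of the table. Nlrp5 was left out of the family and is described among its partners. All 10 were found, and all 10 were among the 13146 genes that passed the filter on low counts. RNA was sequenced from mouse embryos at the 2-cell stage, in pools of 5 embryos, to measure transcriptome-wide changes under CasRx knockdown of Polq. CasRx is a nuclease that cuts RNA under the direction of a guide, and Polq encodes DNA polymerase theta. The 4 control libraries came from embryos labelled WT that received CasRx, and the 4 knockdown libraries from embryos that received CasRx together with a guide against Polq. Injection was done in zygotes, 20 h after the hormone hCG that triggers ovulation, and the pools were collected 10 h after injection. The sources used here do not give the mouse strain, the guide sequence or the age of the females, and the labels name no guide in the controls.

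NLRP proteins carry a NACHT domain, which binds nucleotides, and leucine-rich repeats. Several relatives sense microbial or danger signals and assemble inflammasomes, whereas the genes described here are known for their expression in oocytes. Their RNA and protein are made during oocyte growth and passed to the embryo, where several act as maternal-effect factors: the embryo depends on what the mother stored. Nlrp5 and Nlrp4f belong to the subcortical maternal complex, a protein assembly under the surface of the egg. Maternal RNA is degraded while the zygotic genome is switched on, a change that is under way at the 2-cell stage in the mouse. In pooled whole embryos, a lower level of a transcript per embryo and a smaller share of total RNA cannot be told apart.

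In GRCm38, 9 of the 10 genes lie on chromosome 7, and Nlrp4f lies on the minus strand of chromosome 13 from 65177111 to 65205977. The closest trio on chromosome 7 is Nlrp9c (minus strand, 26322473 to 26403700), Nlrp4a (plus strand, 26435113 to 26476142) and Nlrp9a (plus strand, 26535023 to 26575615), which together span 253.1 kb. Nlrp2 lies on the minus strand from 5298547 to 5351035, and Nlrp4c, Nlrp4b, Nlrp9b, Nlrp4e and Nlrp14 lie on the plus strand. Their positions are 6045161 to 6105150 for Nlrp4c, 10687789 to 10730168 for Nlrp4b and 19991465 to 20073306 for Nlrp9b. Nlrp4e lies from 23301192 to 23362277 and Nlrp14 from 107166990 to 107198102. Each of the 10 is a protein-coding gene in the annotation, with 9 to 14 separate exonic regions. The longest coding sequences run from 863 codons in Nlrp4b to 1046 in Nlrp2.

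The coding sequences fall into an Nlrp4 and an Nlrp9 subfamily, with Nlrp2 and Nlrp14 apart from both. In global alignments the 3 Nlrp9 genes shared 82.4% to 87.3% of aligned positions with each other, the highest being Nlrp9a with Nlrp9c. Within the Nlrp4 subfamily the identity reached 93.55% between Nlrp4c and Nlrp4e and was 68.4% between Nlrp4a and Nlrp4b. RefSeq (GRCm38.p6) windows of 300 bases, 250 before and 50 after each annotated start, were matched for 9 of the 10 genes in 11 entries. Nlrp14 was not matched.

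Nlrp9c and Nlrp9a are shown first because their start-site windows share a near-identical block while their RNA levels lie far apart. Each runs 5′ to 3′ along its gene's strand, and capitals mark each E-box, the motif CANNTG searched on both strands, which basic helix-loop-helix factors such as the oocyte factor Figla bind. The first lies at chr7:26403651-26403950 on the minus strand and the second at chr7:26534773-26535072 on the plus strand.
Nlrp9c: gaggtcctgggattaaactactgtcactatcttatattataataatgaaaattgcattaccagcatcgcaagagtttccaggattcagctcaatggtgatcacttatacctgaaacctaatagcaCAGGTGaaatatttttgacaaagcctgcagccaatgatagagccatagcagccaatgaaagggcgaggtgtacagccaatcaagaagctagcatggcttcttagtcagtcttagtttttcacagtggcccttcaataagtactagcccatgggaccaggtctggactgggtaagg
Nlrp9a: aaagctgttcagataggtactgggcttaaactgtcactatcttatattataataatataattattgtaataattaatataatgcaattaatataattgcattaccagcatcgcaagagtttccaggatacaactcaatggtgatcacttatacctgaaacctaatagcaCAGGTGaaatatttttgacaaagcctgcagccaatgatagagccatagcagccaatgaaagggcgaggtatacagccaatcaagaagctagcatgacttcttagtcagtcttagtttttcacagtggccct
Aligned end to end these windows were 70.32% identical, close to the 70.85% of the Nlrp4a and Nlrp4b windows shown next. Over their best local alignment of 227 columns they were identical at 216 (95.2%), and 106 bases in a row were the same. The block lies 44 bases farther upstream of the annotated start in Nlrp9c. Both hold 1 E-box, of the form CAGGTG, inside that run, and 20.2% of all 32851 windows hold that form. The motif TAATTG, held by 8.0% of all windows on either strand, occurs in Nlrp9a and Nlrp9b and not in Nlrp9c. The window of Nlrp9b shared at most 9 bases in a row with Nlrp9a. It lies at chr7:20007773-20008072, inside the gene span given above, whereas the windows of Nlrp9a and Nlrp9c lie at the 5′ ends of theirs. Unlike positions are thus compared, and the sequence at the 5′ end of the Nlrp9b span was not examined.

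The windows of Nlrp4a (its second annotated start), Nlrp4b (its first) and Nlrp4c are shown because they hold the same pair of E-boxes at the same spacing. They lie on the plus strand at chr7:26435364-26435663, chr7:10687543-10687842 and chr7:6044911-6045210.
Nlrp4a: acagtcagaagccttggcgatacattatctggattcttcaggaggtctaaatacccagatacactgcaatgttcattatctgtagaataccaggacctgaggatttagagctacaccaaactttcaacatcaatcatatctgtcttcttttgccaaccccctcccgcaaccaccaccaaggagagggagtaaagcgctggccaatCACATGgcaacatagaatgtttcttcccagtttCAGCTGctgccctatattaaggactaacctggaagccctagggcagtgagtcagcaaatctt
Nlrp4b: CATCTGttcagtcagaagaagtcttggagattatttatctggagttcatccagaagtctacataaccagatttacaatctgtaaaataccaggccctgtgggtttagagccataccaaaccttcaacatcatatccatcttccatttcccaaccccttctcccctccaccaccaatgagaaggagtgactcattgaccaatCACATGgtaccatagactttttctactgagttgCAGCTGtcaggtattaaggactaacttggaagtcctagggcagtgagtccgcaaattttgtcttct
Nlrp4c: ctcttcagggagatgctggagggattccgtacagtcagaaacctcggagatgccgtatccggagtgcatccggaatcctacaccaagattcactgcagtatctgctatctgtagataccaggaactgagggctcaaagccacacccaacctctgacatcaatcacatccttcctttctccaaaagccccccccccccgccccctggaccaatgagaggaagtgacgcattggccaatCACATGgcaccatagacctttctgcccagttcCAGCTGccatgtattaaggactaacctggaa
In all 3 a CACATG is followed by a CAGCTG, with 33 bases from start to start in Nlrp4a and Nlrp4b and 32 in Nlrp4c. CACATG alone is held by 14.2% of all windows and CAGCTG alone by 16.3%. The ordered pair at 32 or 33 bases, a spacing noted in these sequences and then counted, is held by 12 of 32851 windows (0.0365%), and 4 of those 12 belong to these 3 genes. Those 4 include both Nlrp4b entries, which share 272 bases in a row. The 3 windows shown are also alike along most of their length. Their best local alignments run over 282 to 304 columns at 74.1% to 75.3% identity, and the pair lies within that shared sequence. The window at the first Nlrp4a start and those of Nlrp4e and Nlrp4f have CAGCTG without the pair. The best local alignments of that first Nlrp4a window and of Nlrp4e with the Nlrp4a window shown cover 11 and 13 columns. Unlike sequence is thus compared there. For Nlrp4f the window cannot show the pair: a shared run of 26 bases lies at 24 in Nlrp4a and at −231 in Nlrp4f. The stretch matching the Nlrp4a pair, upstream of that run, would thus fall outside the Nlrp4f window. Nlrp2 has no E-box in its window, against 72.3% of all windows with at least 1. Motif matches are a description of letters, and binding was not measured here.

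**Figure D1:**
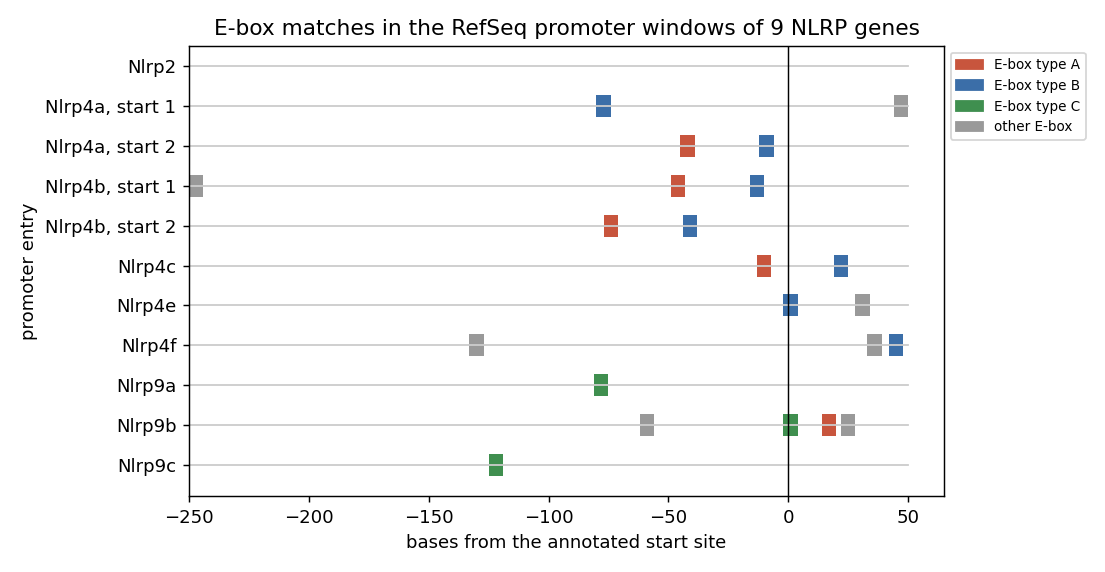
Positions of E-box matches (coloured bars, 6 bases long) in the 11 RefSeq promoter entries of 9 genes, in bases from the annotated start site (vertical line). Type A is CACATG, type B CAGCTG, type C CAGGTG, each on either strand, and grey marks any other E-box. The type A and type B pair recurs in Nlrp4a (second start), both Nlrp4b entries and Nlrp4c, and the single type C box of Nlrp9a and Nlrp9c sits at −81 and −125.

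The control libraries held 33311665 to 43748621 counts. Knockdown-labelled replicates 1, 2 and 3 held 4726159, 8627403 and 8100969, and replicate 4 held 33650050. Polq itself overlapped between the groups, at 32.7 to 49.7 counts per 1000000 (CPM, with TMM scaling of library sizes) in the controls and 16.9 to 41.1 CPM in the other libraries, so libraries are named by label. The 2-cell identity was checked with fixed markers. The 14 oocyte RNAs found summed to 41629 to 47254 CPM in control pools and 33719 to 50033 CPM in knockdown-labelled pools, led by Dppa3 and Oosp1. The 11 zygotic 2-cell RNAs found summed to 1278 to 2825 and 1526 to 2591 CPM, led by Rfpl4b and Tcstv3. Of 14 genes of granulosa and cumulus cells, which surround the oocyte, 6 were at 0 in all libraries, Fshr and Foxl2 among them. The list summed to 0 to 24.6 CPM in control pools and 5.16 to 11.21 CPM in the others. It was led by Tnfaip6, with 0 to 515 counts (16.2 CPM in control replicate 2), and Cyp19a1, with 0 to 166 counts. Of 7 sperm genes 6 were at 0, Prm1 among them. The remaining gene, Prm2, had 0 to 224 counts and reached 7.06 CPM in a control and 7.34 CPM in a knockdown-labelled library. Of 6 leukocyte genes 4 were at 0, and the sums, led by Cd68 with 0 to 83 counts, reached 2.54 and 3.58 CPM.

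Read sharing between these paralogs was limited but uneven. The expected counts were whole numbers in all 8 libraries for 9 of the 10 genes and in 7 libraries for Nlrp4a, so that fractional assignment was hardly visible. Of the 50-base windows of the annotated Nlrp4e transcripts, 36.7% also occur in another gene, chiefly in Gm16443, Gm8486 and Gm8685, and 11.5% of its 100-base windows do. Gm16443 and Gm8685 were at 0 in every library, and Gm8486 had at most 94 counts. For the other 9 genes the shared part was 0 to 10.7% of 50-base windows and 0 to 2.11% of 100-base windows. The highest of these 50-base shares was that of Nlrp4c, whose first partner was Nlrp4e, and Nlrp14 and Nlrp4b shared none. No source used here gives the read length, so the split between Nlrp4c and Nlrp4e is uncertain. Exons of Nlrp2 and Nlrp9b overlap the annotated genes Gm18757 and Gm18877, which were both at 0.

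Nlrp9c was by far the most abundant member. Per kilobase of merged exons it stood at 373 ± 96.9 CPM in control pools (mean ± SD, n = 4), 11.6 times the next gene, and it lay above every other member in all 8 libraries. The length matters for this gene: with the longest annotated transcript, 3.216 in place of 5.935 kb, its control level was 689 ± 179 CPM per kilobase. Nlrp4f, Nlrp9a and Nlrp14 followed at 32.1 ± 7.51, 31.3 ± 12.5 and 27.6 ± 9.72 CPM per kilobase, and their control ranges overlapped. Nlrp14 lay above Nlrp4a in all 8 libraries, by 2.91 times in the control means and by 1.11 to 4.78 times taken library by library.

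The lower group held Nlrp4a at 9.49 ± 3.79, Nlrp9b at 8.31 ± 4.13, Nlrp4e at 6.15 ± 4.52, Nlrp2 at 4.49 ± 2.57 and Nlrp4b at 3.47 ± 1.65 CPM per kilobase. Each neighbouring pair in this group overlapped in the controls. Nlrp4c was the least abundant at 0.833 ± 0.636 CPM per kilobase, 4.17 times below Nlrp4b and below it in all 8 libraries. The 3 Nlrp9 genes held ranks 1, 3 and 6 of the order. Nlrp9c exceeded Nlrp9a by 9.04 to 33.9 times per kilobase and Nlrp9b by 29.0 to 106 times, taken library by library.

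**Figure D2:**
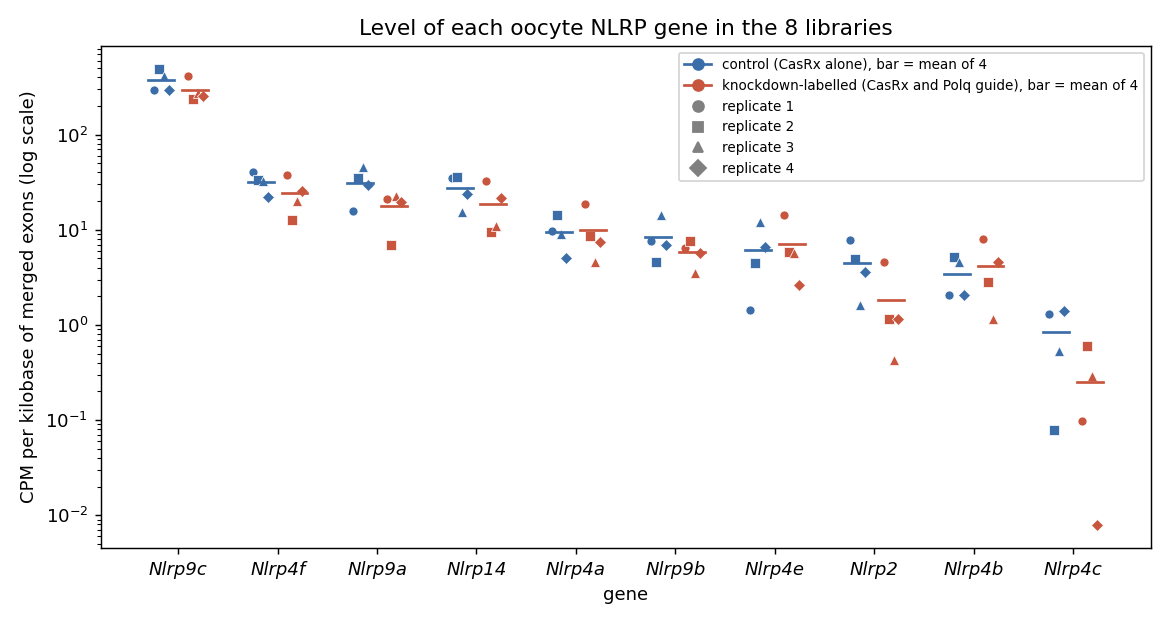
Level of each gene in each library, as CPM per kilobase of merged exons on a log axis, with genes ordered by control mean. Symbols mark replicates, blue the 4 controls, red the 4 knockdown-labelled libraries, and horizontal bars the group means. Nlrp9c lies above all other genes in every library, and Nlrp4c spreads most.

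None of the 10 genes passed edgeR's quasi-likelihood test, fitted over all genes. All 10 had an adjusted p of 1.0, and their unadjusted p ran from 0.0743 (Nlrp9a) to 0.915 (Nlrp4a). The same test called 0% of the 13146 genes, and 2.81% had an unadjusted p under 0.05. In 7 members the log2 fold change (knockdown-labelled minus control) was negative and in 3 positive, with a median of −0.47. Over all genes tested 53.4% were negative, and the median was −0.05. No member had 4 knockdown-labelled libraries all on one side of the 4 controls, a pattern found in 2.98% of all genes. The 7 negative members include both the most and the least abundant gene.

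The knockdown-labelled libraries differed among themselves. Knockdown-labelled replicate 1, the library with the fewest counts, had the highest level of all 8 libraries in Nlrp4a, Nlrp4b and Nlrp4e, whereas 10, 10 and 9 of the 10 members lay below their control mean in replicates 2, 3 and 4. Of all genes tested, 57.9%, 56.7% and 55.5% lay below their control mean in those libraries. In replicate 1 it was 3 of the 10 members and 57.5% of all genes. Without replicate 1 all 10 log2 fold changes were negative with a median of −0.65, and over all genes 53.6% were negative. In that fit Nlrp2, Nlrp4f, Nlrp9c and Nlrp14 had an unadjusted p under 0.05, as did 4.81% of the 14002 genes tested, and none passed after adjustment (edgeR adjusted p = 1.0). Without replicate 2 the median was −0.30. When any library other than knockdown-labelled replicate 1 was left out, 7 or 8 members were negative. With replicate 4, the deep library, as the only knockdown-labelled one, a setting chosen after seeing the data, 9 of 10 were negative with a median of −0.54, where all genes had a median of −0.36. The part of depth in these differences was not tested.

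**Figure D3:**
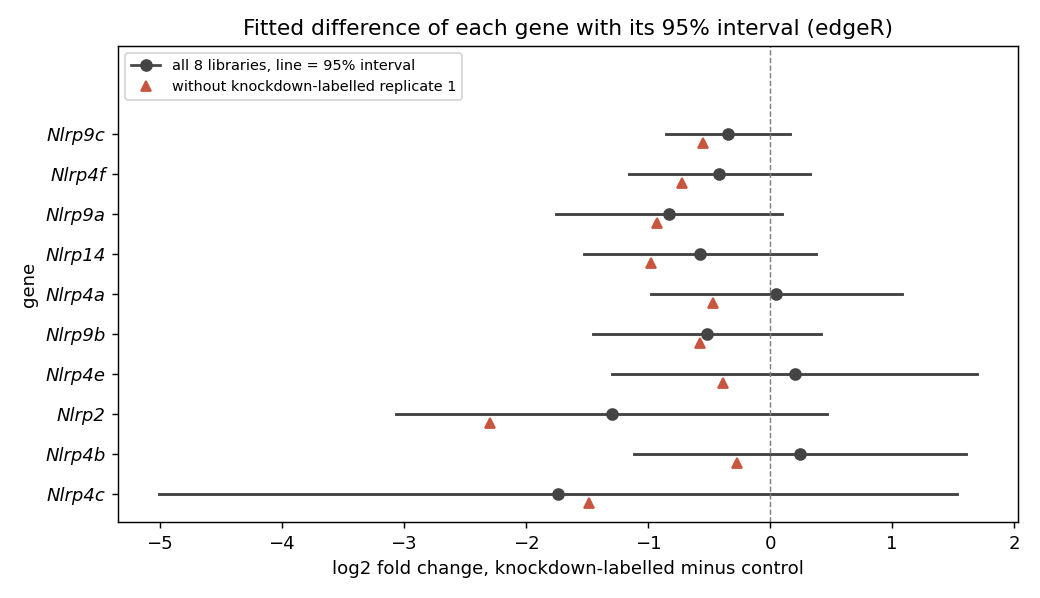
Fitted log2 fold change of each gene (black points) with its 95% interval (black lines) from edgeR on all 8 libraries, and the estimate without knockdown-labelled replicate 1 (red triangles). The interval of every gene includes 0, and all 10 triangles lie left of 0. With any other library left out (not drawn), 7 or 8 genes were negative.

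The 3 Nlrp9 genes, whose combined loss in mice is known to disturb early cleavage, had lower means in the knockdown-labelled group that the test did not separate. Nlrp9c was at 1750, 2922, 2445 and 1742 CPM in control replicates 1 to 4 and at 2427, 1404, 1637 and 1508 CPM in knockdown-labelled replicates 1 to 4. Replicates 2, 3 and 4 lay below all controls, and replicate 1 lay among them. The fitted level was 78.7% of control (95% interval 55.4% to 112%), and edgeR gave −0.34 on the log2 scale with an SE of 0.23 and an adjusted p of 1.0. With 11553 counts or more in every library, counting error of a single value is under 1%.

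Nlrp9a had the smallest unadjusted p of the family. Its levels were 54.4, 121, 159 and 102 CPM in control replicates 1 to 4 and 74.2, 24.3, 79.5 and 67.9 CPM in the knockdown-labelled ones. All 4 knockdown-labelled libraries lay below the median control, and 1 lay below the lowest control. The fitted level was 56.4% of control (interval 29.7% to 107%). Leaving out 1 library moved its log2 fold change from −0.83 to between −1.04, without control replicate 1, and −0.55, without knockdown-labelled replicate 2.

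Nlrp9b, which is also known as a sensor of viral RNA in the gut, was at 28.1, 17.2, 53.0 and 25.6 CPM in control pools and 24.0, 28.2, 13.1 and 21.3 CPM in knockdown-labelled pools. The groups overlapped, and the difference rested on control replicate 3: its log2 fold change was −0.52 with all libraries and −0.13 without that one. Summed over the subfamily, Nlrp9 RNA was at 2354 ± 605 CPM in control pools and 1827 ± 479 CPM in knockdown-labelled pools, a level that Nlrp9c sets. Fitted as 1 gene, the sum had a log2 fold change of −0.37 (SE 0.23, edgeR adjusted p = 1.0).

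The Nlrp4 subfamily had both signs. Nlrp4f, a protein of the subcortical maternal complex, was at 156, 129, 126 and 85.5 CPM in control replicates 1 to 4 and at 147, 49.3, 77.0 and 99.5 CPM in knockdown-labelled pools. Knockdown-labelled replicates 2 and 3 lay below all controls, and the fitted level was 75.0% of control (interval 44.9% to 125%). The genes Nlrp4g (121 to 1732 counts) and Gm47180 (222 to 2984 counts) share sequence with it, and 5.95% of its 50-base windows occur elsewhere.

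Nlrp4a was at 47.2, 69.0, 43.3 and 24.3 CPM in control pools and 91.4, 41.4, 22.2 and 35.8 CPM in knockdown-labelled pools. Those include both the highest and the lowest value of the 8. Nlrp4b was at 9.17, 23.2, 20.7 and 9.24 CPM and 35.5, 12.6, 5.20 and 20.7 CPM, again with both extremes in the knockdown-labelled group. Nlrp4e, whose depletion in mouse embryos is known to impair preimplantation development, was at 4.92, 15.1, 41.4 and 22.2 CPM in control pools and 48.4, 19.8, 19.5 and 8.84 CPM in knockdown-labelled pools. The log2 fold changes of these 3 genes were 0.05 (SE 0.46), 0.25 (SE 0.61) and 0.20 (SE 0.67), and without knockdown-labelled replicate 1 they were −0.47, −0.27 and −0.39.

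Nlrp4c was detected in every library on 1 to 242 counts. Control replicates 1 to 4 had 172, 10, 94 and 242 counts (5.26, 0.315, 2.15 and 5.63 CPM), and knockdown-labelled replicates 1 to 4 had 2, 20, 10 and 1 (0.397, 2.43, 1.16 and 0.0313 CPM). Control replicate 2 lay below 3 of the knockdown-labelled libraries, so the groups overlapped. Although replicate 4 of the knockdown-labelled group is a deep library, it had a single count. The log2 fold change of −1.74 had an interval from −5.0 to 1.53, the widest of the family. The 5 Nlrp4 genes fitted as 1 sum had a log2 fold change of −0.19 (interval −0.90 to 0.53, edgeR adjusted p = 1.0).

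Nlrp14 and Nlrp2 were the 2 members most alike across the libraries. Nlrp14, a maternal factor that binds Uhrf1 in the egg cytoplasm, was at 125, 126, 54.9 and 84.7 CPM in control pools and at 114, 33.5, 38.7 and 76.0 CPM in knockdown-labelled pools. Knockdown-labelled replicates 2 and 3 lay below all controls, and the fitted level was 67.1% of control (interval 34.7% to 130%). Nlrp2, whose loss in the mother is known to impair the development of her embryos, was at 27.2, 17.5, 5.74 and 12.6 CPM in control pools and at 16.3, 4.01, 1.5 and 4.07 CPM in knockdown-labelled pools. Replicates 2, 3 and 4 lay below all controls and replicate 1 among them, on 33, 13, 130 and 82 counts respectively.

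For Nlrp2 the fitted level was 40.7% of control with an interval from 12.0% to 139% (log2 fold change −1.30, SE 0.79, edgeR adjusted p = 1.0). Leaving out knockdown-labelled replicate 1 gave −2.29, and leaving out control replicate 1 gave −0.89. Pearson's r of log2 CPM between Nlrp2 and Nlrp14 over the 8 libraries was 0.89, the highest of the 45 pairs. Next came Nlrp4f with Nlrp14 at 0.83 and Nlrp4a with Nlrp4b at 0.83, and the lowest was −0.59 for Nlrp4b with Nlrp4c. These values share libraries and scaling and are descriptions. Per kilobase Nlrp14 exceeded Nlrp2 by 4.57 to 25.6 times in the 8 libraries.

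Summed over all 10 genes, family RNA was at 2207, 3440, 2950 and 2113 CPM in control replicates 1 to 4 and 2979, 1619, 1895 and 1842 CPM in knockdown-labelled replicates 1 to 4. Knockdown-labelled replicates 2, 3 and 4 lay below all controls, and replicate 1 lay inside their range. Nlrp9c made up 82.4% ± 2.33 of that sum in the controls and 84.1% ± 2.81 in the knockdown-labelled libraries (n = 4 each). The other 9 genes together were at 463 ± 66.7 and 340 ± 149 CPM. Over the 8 libraries the share of Nlrp9c ran from 79.3% to 86.7%.

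**Figure D4:**
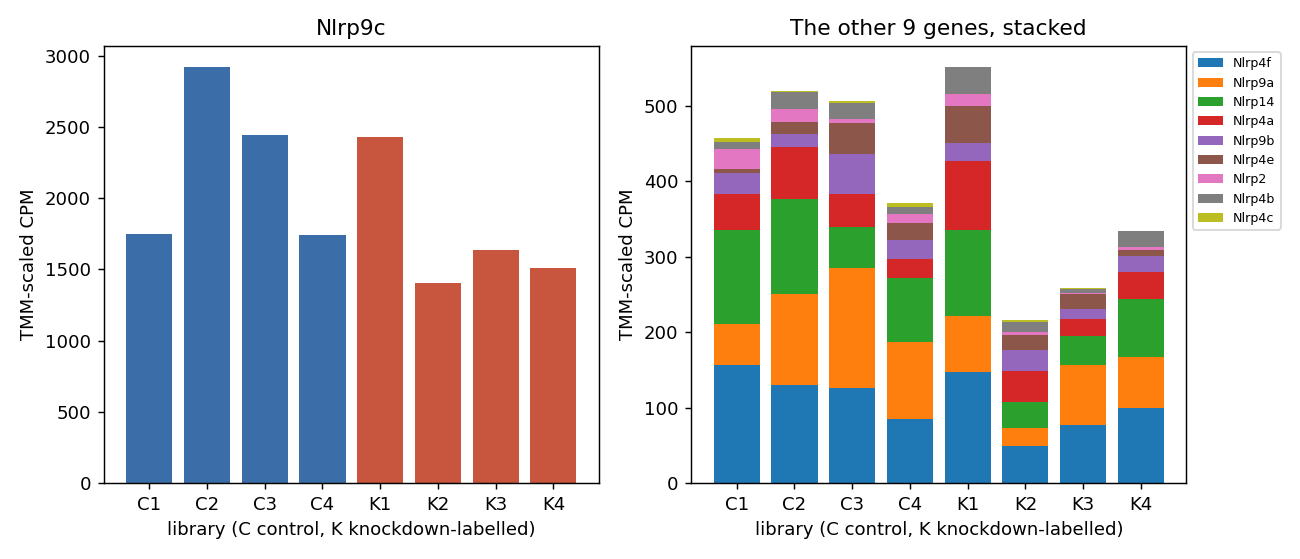
TMM-scaled CPM of Nlrp9c (left, bars coloured by group) and of the other 9 genes stacked (right) in the 4 controls (C1 to C4) and 4 knockdown-labelled libraries (K1 to K4), with both axes starting at 0. K1 lies within the range of the controls for Nlrp9c and above them for the stack, and K2, K3 and K4 lie below all 4 controls in both panels.

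Spread between pools of one group differed from member to member. In the controls the coefficient of variation ran from 23.4% for Nlrp4f to 76.4% for Nlrp4c. Among genes within 1.5-fold of the same mean level, Nlrp4c stood at the 30.4th percentile of that coefficient and Nlrp4e at the 89.0th, with 73.5% where the median of 1899 such genes was 43.3%. Counting error of Nlrp4e was at most 7.88% in any library. In the knockdown-labelled group Nlrp14 varied by 57.2% where the median of like genes was 27.7%.

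Partners of the NLRP proteins in the egg cytoplasm showed no difference past the test. Of 8 listed genes 7 were tested, 5 had negative and 2 positive log2 fold changes, and 0 passed, with a median of −0.09. Over all genes tested 53.4% were negative. Nlrp5, the core of the subcortical maternal complex, was at 49.5 ± 6.22 CPM in control pools and 51.3 ± 14.7 CPM in knockdown-labelled pools (log2 fold change 0.05, SE 0.27). Its partners Ooep, Tle6 and Khdc3 were at 172 ± 80.4, 8.93 ± 5.34 and 3.68 ± 1.66 CPM in control pools. In the knockdown-labelled libraries they were at 124 ± 56.0, 9.43 ± 6.74 and 2.92 ± 2.43 CPM. Zbed3, another protein of that complex, was at 319 ± 92.6 and 315 ± 106 CPM.

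Padi6, which builds the cytoplasmic lattices of the egg, was at 17.3 ± 3.66 CPM in control pools and 16.0 ± 10.8 CPM in knockdown-labelled pools. Uhrf1, a cofactor of DNA methylation maintenance and partner of Nlrp14, was at 11.8 ± 2.37 and 11.0 ± 4.62 CPM. Slc8b1, a mitochondrial sodium and calcium exchanger, was too low to test, with 0 to 48 counts. The maternal marker list, which shares Padi6 and Ooep with the partners, had a median log2 fold change of −0.16 over 14 tested genes. Of these 13 were negative, where 53.4% of all genes tested were, and none passed the test. Whether these medians differ from that of the NLRP genes was not tested.

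The NLR genes known from immunity were low in sum beside the oocyte NLRP genes. Of 17 listed receptors 7 were tested, as were 13146 of all 55487 genes, and Nlrp6, Nlrp10, Nlrc5 and Naip6 were at 0 in all 8 libraries. The whole list summed to 34.9 ± 11.0 CPM in control pools and 52.7 ± 19.2 CPM in knockdown-labelled pools, against 2678 ± 631 and 2084 ± 608 CPM for the 10 oocyte NLRP genes. Most of the latter was Nlrp9c, at 2215 ± 575 and 1744 ± 465 CPM. By the mean over all 8 libraries its most abundant members were Nlrx1, a mitochondrial NLR protein, at 9.93 ± 3.0 and 13.4 ± 6.88 CPM, and Nlrp12 at 6.59 ± 5.04 and 13.8 ± 11.6 CPM. Nlrc4 had the highest mean of the list in the knockdown-labelled group, at 14.4 ± 8.70 CPM against 5.24 ± 5.99 CPM in control pools. Of the 7 tested receptors 6 had positive log2 fold changes (median 1.04) and 0 passed, where 46.6% of all genes were positive. Each of those tested had at least 1 library with under 100 counts.

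Apart from the kinase Nek7, inflammasome effectors were at or near 0. Casp1, the protease of the inflammasome, Il1b, its cytokine substrate, and Mefv were at 0 in all 8 libraries, and the adaptor Pycard had at most 22 counts. Of 9 effectors Nek7 was the one tested, at 15.4 ± 10.3 CPM in control pools and 10.3 ± 5.63 CPM in knockdown-labelled pools. The list's next gene, Casp4, had at most 70 counts. Of 8 oocyte transcription factors 5 were tested and 0 passed, with a median log2 fold change of −0.28. Foxo3 and Taf4b led that list at 90.7 ± 37.1 and 73.2 ± 18.3 CPM in control pools and 74.6 ± 13.6 and 73.7 ± 9.23 CPM in knockdown-labelled pools. Figla had no count in 5 of the 8 libraries, and Sohlh1 had none in any.

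The genes whose pattern over the 8 libraries was most like the summed family level were Fmn2, Dpy30 and Nexn. Among 2125 genes averaging 50 CPM or more, their log2 CPM had the highest Pearson's r with the log2 sum, at 0.97, 0.97 and 0.97. Fmn2, an actin nucleator needed to position the meiotic spindle of the oocyte, was at 66.6 ± 18.2 CPM in control pools and 51.3 ± 20.0 CPM in knockdown-labelled pools. Dpy30, a subunit of histone H3K4 methyltransferase complexes, was at 868 ± 191 and 687 ± 207 CPM. Nexn, an actin-binding protein, was at 1180 ± 185 and 962 ± 184 CPM. The sum is mostly Nlrp9c, and with 8 libraries and this many genes such a likeness is a description.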

How the data were processed

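Per the labels' protocols, TRIzol was used for extraction and a NEBNext Ultra kit for library preparation. The authors deposited 1 table of expected counts for genes, without normalisation. The submitters' processing notes name RSEM 1.2.28, STAR 2.7.3a and Trim Galore 0.6.10, with the builds GRCm38 and mm10. The sources used here do not give the annotation release, the strand setting or the read length. Expected counts were rounded, which altered 4.22% of values, filtered with filterByExpr (minimum count 10, minimum total 15), scaled by TMM and compared with edgeR 4.0.16 (robust quasi-likelihood test, R 4.3.3, Benjamini-Hochberg adjustment over 13146 genes, threshold 0.05). Replicates are called biological in the series text. The members and lists were chosen with earlier results of these data known. All members and partners are named, other lists by count and their 2 most abundant genes, and 3 genes by likeness to the summed level. Genes named for further reasons were chosen after their values were seen. Lengths, positions and shared windows come from GENCODE M21, where 53170 of 55487 symbols matched 1 gene. The listed markers H1foo and Dux were not found among the deposited symbols. Molecular identifiers are not mentioned, so counting errors cover counting only. The test was checked on simulated data whose spread was set below the common spread fitted here (a coefficient of variation of 0.99 between libraries). That check thus does not show which differences the test could miss in these libraries. Alternatives were 3 other scalings, 2 other filters, DESeq2 1.42.0, limma-voom (limma 3.58.1), a replicate block, thinning, summed subfamilies, another length, each library left out, and, added after seeing the data, 3 left out together.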

Additional observations from a re-analysis of the deposited data

Results flagged for a closer look

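In 38 sets of 4 libraries (10 members, their sum and 8 partner genes in each group), 3 had 1 value far from the other 3, where chance flags about 1 in 20. No member and no family sum was among them. Nlrp5 was at 58.8 CPM in control replicate 3, and the next highest control was at 47.2 CPM. Padi6 was at 22.8 CPM in control replicate 4, and the next was at 15.7 CPM. Slc8b1 was at 1.47 CPM in control replicate 1, and the next was at 0.186 CPM.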

How the results depend on the processing

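No gene passed in edgeR with all 8 libraries (369 at an unadjusted p under 0.05), nor under the other scalings, filters, limma-voom (863), the replicate block (293), thinning or with any library left out, while DESeq2 called 20 genes, 14 higher and 6 lower, no member or list gene among them. The median log2 fold change of the members ran from −0.65 to −0.30 with 1 library left out and moved by less than its spread between libraries in the other settings. Of 186 recomputed member values 172 kept their sign and none passed. They include the fit of each summed subfamily, entered once for each of its 5 Nlrp4 or 3 Nlrp9 genes. The 14 reversals concern Nlrp4a, Nlrp4b and Nlrp4e. Nlrp4a was −0.16 with limma-voom, −0.045 with the replicate block, −0.058 after thinning and −0.35 with replicate 4 as the only knockdown-labelled library. Nlrp4e was −0.30 with limma-voom and −1.23 in that last setting. The summed Nlrp4 subfamily had −0.19, a single value entered as a reversal for each of Nlrp4a, Nlrp4b and Nlrp4e, not an estimate of each gene. With 1 library left out Nlrp4a ran from −0.47 to 0.32, Nlrp4b from −0.27 to 0.56 and Nlrp4e from −0.39 to 0.77. The cause of these reversals was not tested. Nlrp4c was too low to test under the stricter filter and after thinning. Deviations of same-numbered libraries correlated at −0.10, 0.00046, −0.0079 and 0.013, so no pairing by replicate number was seen. The labels name no pairing, and such correlations cannot exclude it. Under the replicate block 8 members were negative. Only Nlrp2 then had an unadjusted edgeR p under 0.05, as did 293 of 13146 genes. Nlrp9a had such a p without a filter, as did 2614 of 26410 genes. It also had one without control replicate 1, as did 656 of 14136 genes. With the longest transcript as the length, Nlrp2 and Nlrp4b changed places in the order and Nlrp9c was at 689 CPM per kilobase. Medians of all genes stayed within 0.1 of the value given except without a filter (−0.16) and with 1 knockdown-labelled library (−0.36). Counts were lowest for Nlrp4c, Nlrp2 and Nlrp4b, which had under 100 in at least 1 library. For Nlrp4c deep libraries are among these, with 10 and 94 counts in control replicates 2 and 3 and 1 in knockdown-labelled replicate 4.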
